A study of Homo sapiens with 4 samples.

Results

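The genes described here are 10 integrin subunits found by their symbols, 5 alpha (ITGA2, ITGA3, ITGA5, ITGA6 and ITGAV) and 5 beta (ITGB1, ITGB3, ITGB4, ITGB5 and ITGB8), among 62443 genes in the file. They were measured by RNA-seq in HGC-27, a human gastric cancer cell line, with 2 libraries from cells treated with GLUP and 2 from control cells. GLUP is a cyclic peptide that carries the stretch of VGLL4 by which it binds the transcription factor TEAD4, and it was made to draw TEAD4 molecules together. It was given at 10 μg/ml. The duration of the treatment is stated in different places as 12 h and as 48 h. The control cells are described as given the peptide's buffer in the methods and as untreated in the sample labels. The methods call the replicates biological without saying what separates them, so the p-values measure the spread between these libraries.

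Integrins are receptors of the cell surface that bind the extracellular matrix or other cells. Each is a pair of an alpha and a beta subunit, and the pairing sets the ligand. The beta subunit's short cytoplasmic tail recruits talin and kindlin, which switch the receptor on and link it to actin, and adaptors and kinases then gather into focal adhesions. In the stomach, integrins anchor epithelial cells to the laminins of the basement membrane, and in carcinoma they serve attachment, spreading and invasion.

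The deposited values are FPKM, read fragments scaled to gene length and to the size of the library. This scaling does not correct for differences between libraries in RNA composition or along GC content. The sum of FPKM over genes ran from 909735 to 949919 per library. In bulk RNA, fewer cells of a type and less RNA per cell cannot be told apart. Across the 7588 genes tested, those that average 1 FPKM or more, Pearson's r was 0.986 within the GLUP pair and 0.933 within the control pair, and control replicate 2 stood apart from the GLUP libraries at 0.873 and 0.886. Control replicate 1 was closer to the GLUP libraries, at 0.952 and 0.957, than to control replicate 2. Differences were computed on the log2(FPKM + 1) scale, where the change of a low gene is understated, and the median over the 7588 genes was −0.36. Changes are therefore also given relative to this median. Of the cell type markers, VIM, the intermediate filament of mesenchymal cells, stood between 293 and 387 FPKM, and the other mesenchymal marker, CDH2 (N-cadherin), at most at 0.0508 FPKM. The epithelial surface genes EPCAM and CDH1 (E-cadherin) stood at most at 0.124 and 0.0799 FPKM. The keratins KRT7, KRT8, KRT18 and KRT19 were present, KRT7 at 5.24 to 7.78 FPKM, and the 6 epithelial markers summed to 9.82 and 11.5 FPKM in control cells and to 11.1 and 11.2 FPKM with GLUP. Of 5 gastric lineage markers, MUC6, TFF1, TFF2 and GKN1 were listed at 0 in all 4 libraries, and MUC5AC reached 0.0128 FPKM. The fibroblast markers LUM and DCN were at 59.0 to 76.7 FPKM and at 20.1 to 41.3 FPKM, with PDGFRB at most at 0.198 FPKM. These 3 genes summed to between 101 and 102 FPKM in control cells and between 90.4 and 99.1 FPKM with GLUP, and their part in the results below was not tested. Of 6 leukocyte markers 4 were at 0 everywhere, with PTPRC at most at 0.0394 FPKM and LYZ at 0.250 FPKM in control replicate 2 and 0 elsewhere, and the endothelial markers VWF and CDH5 and the platelet gene PF4 were at or near 0.

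Most of the 10 integrin genes were weakly transcribed. ITGA2, whose product forms the collagen receptor with the beta 1 subunit, was listed at 0 in all 4 libraries. Of the other 9 genes, 6 had a mean under 1 FPKM, and 3 (ITGA5, ITGB1 and ITGB5) passed the filter and entered the test. The filter takes the mean over all 4 libraries, so passing can depend on the direction of change. ITGB5 passed through its GLUP mean of 1.55 FPKM, against 0.643 FPKM in control cells. ITGAV, at 1.22 FPKM in control cells and 0.460 FPKM with GLUP, did not pass. ITGB1 and ITGA5, the chains of the fibronectin receptor, were the most abundant beta and alpha gene of the 10, at percentiles 87.3 and 85.5 of the 28873 genes with a value above 0. ITGB5 followed at percentile 74.7, ITGAV at 71.6 and ITGB8 at 67.6. ITGA3 stood at 53.4 and ITGA6 at 51.4, and ITGB3 and ITGB4 at 30.9 and 26.1.

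**Figure D1:**
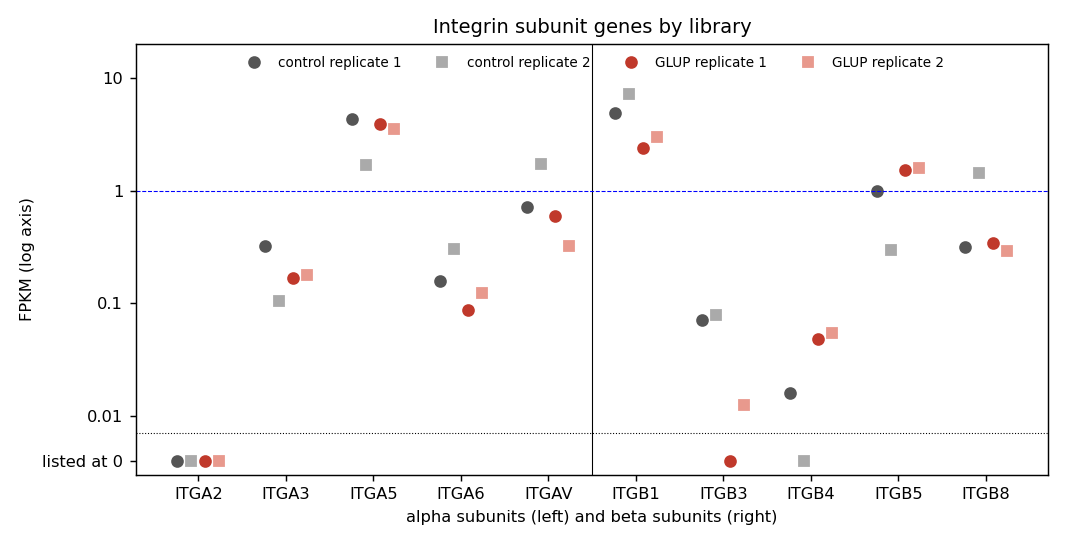
FPKM on a log axis of the 10 integrin subunit genes in each of the 4 libraries, with values listed at 0 on the bottom line and the 1 FPKM filter for the mean as a dashed line. ITGB1 and ITGA5 stand highest, ITGA2 is at 0 throughout, and for ITGA5, ITGAV, ITGB5 and ITGB8 the control libraries lie further apart than the GLUP libraries.

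With GLUP, none of the 3 tested integrin genes was called by limma (more than 2-fold at adjusted p below 0.05), a rule that picked 0.0264% of all genes tested. By unadjusted p below 0.05 the test took 1 of the 3, against 31.7% of all genes tested. This was ITGB1, which was lower, as were 25.4% of all genes at this level. It was also the 1 of the 3 with a log2 fold change below 0, against 66.7% of all genes tested. These counts depend on which genes passed the filter. Among all genes, 354 were more than 2-fold higher and 1103 more than 2-fold lower at an unadjusted p under 0.05, and after each library was centred on its median the split was 796 to 428. In 4 of the 9 detected genes (ITGA6, ITGAV, ITGB1 and ITGB3) the 2 GLUP values were each under the 2 control values, as they were for 26.5% of all genes above 0. In 2 (ITGB4 and ITGB5) both lay above, against 13.2% of all genes above 0. Of the 7588 genes tested, 49.7% had both GLUP values below both control values and 17.5% had both above. ITGA3, ITGA5 and ITGB8 overlapped.

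ITGB1 encodes the beta 1 subunit, the common partner of most alpha chains, and is a minus-strand gene of chromosome 10 (33176201 to 33294720 in GRCh37). It stood at 4.84 FPKM in control replicate 1, 7.13 FPKM in control replicate 2, 2.39 FPKM in GLUP replicate 1 and 2.98 FPKM in GLUP replicate 2. Both GLUP values lay below both control values, as in 49.7% of all genes tested. The mean was 5.99 ± 1.62 FPKM (SD, n = 2) in control cells and 2.68 ± 0.422 FPKM (SD, n = 2) with GLUP, a ratio of 0.448. The log2 fold change was −0.91 (standard error 0.31, 95% interval −1.67 to −0.15), or −0.55 relative to the median gene, with an adjusted p of 0.125 from limma. It was −0.17 with the GC trend removed (adjusted p = 0.742 from limma). Without control replicate 1 it was −1.15, and without control replicate 2 it was −0.67. Without GLUP replicate 1 or 2 it was −0.79 or −1.03. Such fits assume that the lone library left in a group varies like the others, so only their effect sizes are given. A pseudogene, ITGB1P1 on chromosome 19, had 1.34 and 1.14 FPKM in control cells, and 1.07 and 0.803 FPKM after GLUP, and how reads shared by both copies were assigned is not stated.

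ITGA5 encodes the alpha 5 subunit, which pairs with beta 1 alone and binds fibronectin, and lies on chromosome 12 from 54789045 to 54813050 on the minus strand. It stood at 4.31 FPKM in control replicate 1, 1.67 FPKM in control replicate 2, 3.87 FPKM in GLUP replicate 1 and 3.55 FPKM in GLUP replicate 2. Both GLUP libraries lay between the control libraries. The mean was 2.99 ± 1.86 FPKM (SD, n = 2) in control cells and 3.71 ± 0.226 FPKM (SD, n = 2) with GLUP. Limma gave a log2 fold change of 0.32, with a standard error of 0.39, a 95% interval of −0.64 to 1.28 and an adjusted p of 0.574. The sign rested on control replicate 2, without which the log2 fold change was −0.17. Without control replicate 1 it was 0.82, and without GLUP replicate 1 or 2 it was 0.27 or 0.37.

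Since GLUP is aimed at TEAD4, the promoter windows of the integrin genes in RefSeq (GRCh38.p14, from 250 bases before to 50 after the transcription start) were searched for the core of the TEAD site, GGAATG, on both strands. Windows were listed for 7 of the 10 genes, 12 windows in all, and ITGA3, ITGB3 and ITGB4 have none in the table used. The core was found in 2 of the 12, one each at ITGA5 and ITGB1, against 14.0% of all 35116 windows. The ITGB1 window held the first bases of 22 of 36 annotated transcripts of its gene, and the ITGA5 window those of only 1 of 13. Both stretches are shown, 5′ to 3′ and up to the start, because they belong to the most abundant alpha and beta gene of the 10. Capitals mark the TEAD core, 182 bases before the start at ITGB1 (chr10:32958231-32958480, minus strand) and 82 bases before it at ITGA5 (chr12:54419267-54419516, minus strand). The capitals at the end of the ITGA5 stretch are the first bases of an AP-1 site, TGAGTCA, which begins 6 bases before the start.
ITGB1: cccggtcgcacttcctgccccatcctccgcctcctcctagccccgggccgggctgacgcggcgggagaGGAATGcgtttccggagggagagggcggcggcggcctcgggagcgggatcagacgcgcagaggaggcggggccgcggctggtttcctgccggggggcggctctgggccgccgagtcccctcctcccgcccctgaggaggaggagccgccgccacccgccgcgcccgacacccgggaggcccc
ITGA5: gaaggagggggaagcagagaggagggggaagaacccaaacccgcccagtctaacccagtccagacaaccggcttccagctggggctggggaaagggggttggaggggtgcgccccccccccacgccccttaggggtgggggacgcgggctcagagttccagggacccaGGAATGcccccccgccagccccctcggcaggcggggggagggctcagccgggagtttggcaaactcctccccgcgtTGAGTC
The AP-1 letters, TGANTCA on either strand, were in 1 of the 12 windows, that of ITGA5, and in 7.71% of all windows. None of the 3 ITGB5 windows, nor those of ITGA2, ITGA6, ITGAV and ITGB8, held either motif. A match is a string of letters and not a measured binding site. The part of the core in the values of ITGB1 and ITGA5 was not tested.

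ITGB5 encodes beta 5, a partner of the alpha V chain in a receptor for vitronectin, and lies on chromosome 3 from 124480795 to 124620265 on the minus strand. It stood at 0.989 FPKM in control replicate 1, 0.296 FPKM in control replicate 2, 1.51 FPKM in GLUP replicate 1 and 1.59 FPKM in GLUP replicate 2. The GLUP libraries lay close together and above both control libraries, which themselves differed by more than 3-fold. The mean was 0.643 ± 0.490 FPKM (SD, n = 2) in control cells and 1.55 ± 0.0626 FPKM (SD, n = 2) with GLUP, a ratio of 2.41. The log2 fold change was 0.67 (standard error 0.28, 95% interval −0.03 to 1.37), or 1.02 relative to the median gene, with an adjusted p of 0.169 from limma. Over the alternatives it ran from 0.36 without control replicate 2 to 1.33 with a pseudocount of 0.1. All of them reuse the same libraries. Dropping the filter or the mean-variance trend, or adding the replicate block, leaves the estimate at 0.67 by construction. Without control replicate 1 the log2 fold change was 0.98, and without GLUP replicate 1 or 2 it was 0.69 or 0.64.

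The alpha V chain, its partner beta 8 and the laminin receptor chains had lower means over the 4 libraries than ITGB5. In control cells alone, ITGAV and ITGB8 had higher means (1.22 and 0.881 FPKM) than ITGB5 (0.643 FPKM). ITGAV, the alpha chain shared by receptors for vitronectin and other ligands with an RGD motif, had 0.715 and 1.73 FPKM in control cells, and 0.599 and 0.322 FPKM after GLUP. ITGB8, which with alpha V releases TGF-beta from its latent form, had 0.318 and 1.44 FPKM in control cells, and 0.340 and 0.292 FPKM after GLUP. For both genes control replicate 2 was the highest library, and without it the log2 difference went from −0.57 to −0.24 for ITGAV and from −0.45 to −0.0023 for ITGB8. ITGB8 shares its locus with ITGB8-AS1 on the opposite strand, which had 2.75 and 2.67 FPKM in control cells, and 0.872 and 0.973 FPKM after GLUP, and no source states whether strand was used in counting. ITGA6, a laminin receptor chain, had 0.157 and 0.301 FPKM in control cells, and 0.0875 and 0.122 FPKM after GLUP. ITGA3, another laminin receptor chain, had 0.323 and 0.104 FPKM in control cells, and 0.168 and 0.177 FPKM after GLUP, between the control libraries.

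ITGB3 and ITGB4 were close to the lower end of the file. ITGB3, the beta chain of a vitronectin receptor, was at 0.0716 and 0.0785 FPKM in control cells, at 0.0124 FPKM in GLUP replicate 2 and listed at 0 in GLUP replicate 1. ITGB4, which forms the hemidesmosome receptor with alpha 6, was at 0.0158 FPKM and listed at 0 in control cells, and reached 0.0479 and 0.0549 FPKM with GLUP. ITGB4 overlaps GALK1 on the opposite strand, which had 8.32 and 1.57 FPKM in control cells, and 17.3 and 14.1 FPKM after GLUP. The part of reads from GALK1 in these low values was not tested. When all genes above 0 entered limma, the lowest adjusted p among the 9 genes was 0.340, for ITGB3.

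The 5 alpha genes summed to 5.50 and 3.81 FPKM in control cells and to 4.72 and 4.17 FPKM with GLUP, with overlapping groups. The 5 beta genes summed to 6.24 and 8.95 FPKM in control cells and to 4.28 and 4.94 FPKM with GLUP, without overlap. ITGB1 made up 77.6% and 79.7% of the beta sum in control cells and 55.7% and 60.4% with GLUP. ITGB5 made up 15.9% and 3.30% of it in control cells and 35.2% and 32.3% with GLUP. These shares did not overlap between the groups, at the smallest p the exact permutation test allows (0.33, two-sided). They do not depend on the scaling of a library, but they set genes of unlike GC content against each other. ITGB1 is at 39.2% and ITGB5 at 54.6% GC, and over all genes tested the fold change rose with GC content. The part of GC content in these shares was not tested. The share of ITGB8, 5.10% and 16.1% in control cells and 7.95% and 5.92% with GLUP, overlapped. Within the alpha sum, ITGA5 made up 78.3% and 43.9% in control cells and 81.9% and 85.1% with GLUP, and control replicate 2 alone had more ITGAV than ITGA5, at a ratio of 1.03.

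The ratio of ITGA5 to ITGB1, the chains of one receptor, was 0.889 and 0.235 in control cells and 1.62 and 1.19 with GLUP. The ratio of ITGB5 to ITGB1 was 0.204 and 0.0415 in control cells and 0.631 and 0.535 with GLUP. Both ratios were higher in each GLUP library than in either control library, and the exact permutation test gave p = 0.33 (two-sided) for each, the smallest that 2 libraries against 2 allow. The spread between the control libraries was wide for both, at 0.562 ± 0.462 (SD, n = 2) and 0.123 ± 0.115 (SD, n = 2). Both ratios set ITGB1, at 39.2% GC, against a gene of higher GC content (54.5% for ITGA5 and 54.6% for ITGB5). The part of GC content in them was not tested.

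Over the 9 detected genes the median difference was −0.10 on the log2(FPKM + 1) scale, against −0.02 over all 28873 genes above 0, and it was −0.10 for the 4 alpha and −0.10 for the 5 beta genes. As deposited, 6 of the 9 were below 0 (3 alpha and 3 beta), against 57.5% of all genes above 0. Median centring shifts every difference by the same amount, so genes near 0 change sign by it. It left 3 of the 9 below 0, at a median of 0.25 against 0.32 over all genes above 0. With the GC correction 7 of the 9 were below 0, and with a pseudocount of 0.1 the median was −0.66 against −0.12. The 9 genes went both ways in each of these settings, and no common direction is read from these libraries.

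Base composition is set beside the direction of the single genes here, and its part in that direction was not tested. Over 7570 genes tested, the fold change rose with the GC content of the transcript, at 0.58 by Spearman's rho (genes are not independent replicates), and the difference of the control libraries followed it too, at −0.42 for control replicate 2 against control replicate 1. The 5 integrin genes with a GC content under 50% were ITGA6, ITGAV, ITGB1, ITGB3 and ITGB8 (33.5% to 49.7%). All 5 were lower with GLUP as deposited, as were 57.5% of all genes above 0. They were also higher in control replicate 2 than in control replicate 1. Of the 4 with a higher GC content (ITGA3, ITGA5, ITGB4 and ITGB5, 54.5% to 63.6%), 3 were higher with GLUP, and all 4 were lower in control replicate 2. After centring on medians, ITGA6 and ITGB3 were above 0, and so was ITGA3, which was below 0 as deposited. ITGB1, at 39.2% GC, lay in the lowest of 5 equal groups of genes by GC content, whose median log2 fold change was −0.78. ITGA5 and ITGB5, at 54.5% and 54.6%, lay in group 4 of the 5, with a median of 0.02, and so did ITGB3, at 49.7%. With the GC trend removed, the log2 fold change was 0.14 for ITGA5 and 0.48 for ITGB5 (adjusted p = 0.800 and 0.298 from limma).

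Outside the 10 genes, the file holds 16 further integrin subunits, of which 14 were above 0 and only ITGAE and ITGA4 reached 1 FPKM in a library. The rest were at most at 0.359 FPKM, with the leukocyte chains ITGAL and ITGB2 listed at 0 in all 4 libraries. ITGAE, the alpha E chain known from T cells of epithelia, was the most abundant integrin subunit of all, on chromosome 17 from 3617922 to 3704482 on the minus strand. It had 51.0 and 72.9 FPKM in control cells, and 25.6 and 27.7 FPKM after GLUP, which is 4.34 and 5.71 times the sum of the 10 genes in control cells and 2.85 and 3.04 times with GLUP. Both GLUP values lay below both control values, as in 49.7% of all genes tested. The mean was 61.9 ± 15.5 FPKM (SD, n = 2) in control cells against 26.7 ± 1.44 FPKM (SD, n = 2) with GLUP. The log2 fold change was −1.16 (standard error 0.35, 95% interval −2.02 to −0.31), or −0.81 relative to the median gene, with an adjusted p of 0.110 from limma. At 54.6% GC it shared the GC group of ITGA5 and ITGB5, and with the GC trend removed it was −1.35 (adjusted p = 0.224 from limma). Leaving out control replicate 1 gave −1.42, and leaving out control replicate 2 gave −0.91. Without GLUP replicate 1 or 2 it was −1.11 or −1.22. With all libraries, the 95% interval of ITGAE included 0 after median centring (−1.72 to 0.07) and after quantile normalization (−1.80 to 0.05). HASPIN, which overlaps ITGAE on the opposite strand, was at most at 0.233 FPKM. ITGB7, the beta chain that alpha E needs, stood between 0 and 0.150 FPKM, and its ligand CDH1 was at 0.0687 and 0.0799 FPKM in control cells and listed at 0 with GLUP. ITGA4, a fibronectin and VCAM1 receptor chain, had 1.36 and 0.625 FPKM in control cells, and 0.351 and 0.425 FPKM after GLUP.

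The genes whose profile over the 4 libraries was closest to that of ITGA5, by Euclidean distance of mean-centred log2(FPKM + 1) values, were EOLA1 (distance 0.028), LINC00963 (0.041) and DMAP1 (0.045). Those closest to ITGB1 were GNGT1 (0.037), SUGCT (0.045) and ATF7IP2 (0.057). GNGT1 had 8.81 and 12.4 FPKM in control cells, and 4.63 and 5.81 FPKM after GLUP. Over 4 libraries many genes fall on like profiles, so these are descriptions.

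The proteins that act on integrin tails were listed as 38 adaptor and kinase genes, of which 15 were tested. None was called by limma, 5 had an unadjusted p under 0.05 (31.7% of all genes tested had), and at more than 2-fold 2 of these were higher and 2 lower, against 4.67% and 14.5% of all genes tested. Their median log2 fold change was −0.0026, which is 0.35 above that of all genes. With the GC trend removed it was 0.09, against 0.0008 for all genes tested. RAP1B, a small GTPase that brings talin to integrins, had 11.1 and 6.97 FPKM in control cells, and 1.74 and 0.267 FPKM after GLUP (limma log2 fold change −2.40 ± 0.45 SE, adjusted p = 0.10). ITGB1BP1, a binding protein of the beta 1 tail that competes with talin, had 32.3 and 33.3 FPKM in control cells, and 13.0 and 14.9 FPKM after GLUP (log2 fold change −1.17, adjusted p = 0.101 from limma). Both were lower in each GLUP library than in either control library, as were 49.7% of all genes tested. SHARPIN, an inhibitor of integrin activation, was at 1.04 FPKM and listed at 0 in control cells, and reached 1.77 and 2.41 FPKM with GLUP. ILK, the pseudokinase that joins beta tails to parvin and actin, had 6.05 and 0.716 FPKM in control cells, and 8.74 and 6.67 FPKM after GLUP. The lower of its GLUP values was close to the higher control value, and the control values lay far apart.

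Of 37 ligand genes 10 were tested, with none called by limma, 3 at an unadjusted p under 0.05 and none of these past 2-fold, against 31.7% and 19.2% of all genes tested. Their median log2 fold change was −0.28, or 0.08 relative to all genes, and −0.21 with the GC trend removed. FN1, the ligand of alpha 5 beta 1, had 1.15 and 3.25 FPKM in control cells, and 0.655 and 0.671 FPKM after GLUP. LAMC1, the gamma 1 chain of most laminins, had 2.93 and 3.83 FPKM in control cells, and 1.69 and 1.44 FPKM after GLUP. COL1A1, a chain of collagen I, had 2.97 and 3.64 FPKM in control cells, and 6.90 and 4.42 FPKM after GLUP, and MFGE8, a ligand of alpha V receptors, had 2.77 and 2.30 FPKM against 3.46 and 3.08 FPKM. FN1 and LAMC1 were lower in each GLUP library than in either control library, as were 49.7% of all genes tested. COL1A1 and MFGE8 were higher in each, as were 17.5% of all genes tested.

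Of 18 hemidesmosome and membrane partner genes 13 were tested, with none called by limma and 6 at an unadjusted p under 0.05, against 31.7% of all genes tested. At more than 2-fold 3 of these were higher and 2 lower, against 4.67% and 14.5% of all genes. The median log2 fold change was 0.26, or 0.61 relative to all genes, and 0.40 with the GC trend removed. CD47, which binds thrombospondin and associates with integrins in the membrane, had 46.2 and 14.5 FPKM in control cells, and 2.53 and 2.42 FPKM after GLUP. CAV1, the coat protein of caveolae, had 9.67 and 15.4 FPKM in control cells, and 4.01 and 5.92 FPKM after GLUP. SLC3A2 (CD98), which binds beta tails, had 93.0 and 20.2 FPKM in control cells, and 185 and 130 FPKM after GLUP. The tetraspanin CD63 had 377 and 158 FPKM in control cells, and 682 and 599 FPKM after GLUP. Both were higher in each GLUP library than in either control library, as were 17.5% of all genes tested. Limma gave adjusted p values of 0.154 for SLC3A2 and 0.125 for CD63.

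Of 20 genes for folding, cleavage and trafficking 12 were tested, with none called by limma, 4 at an unadjusted p under 0.05, and of these 2 more than 2-fold lower and none more than 2-fold higher. Of all genes tested 31.7% passed this p, 14.5% also more than 2-fold lower and 4.67% more than 2-fold higher. The median log2 fold change was −0.57, or −0.21 relative to all genes, and changed sign to 0.14 with the GC trend removed. ARF6, a GTPase of integrin recycling, had 6.89 and 15.1 FPKM in control cells, and 2.26 and 1.68 FPKM after GLUP. CANX (calnexin), which folds the chains in the endoplasmic reticulum, had 24.0 and 18.6 FPKM in control cells, and 8.73 and 8.13 FPKM after GLUP. SNX17, which returns beta 1 from endosomes to the surface, had 15.7 and 2.48 FPKM in control cells, and 16.1 and 14.5 FPKM after GLUP, and HAX1, a binding partner of the beta 6 tail, had 51.7 and 24.5 FPKM against 73.6 and 47.8 FPKM.

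**Figure D2:**
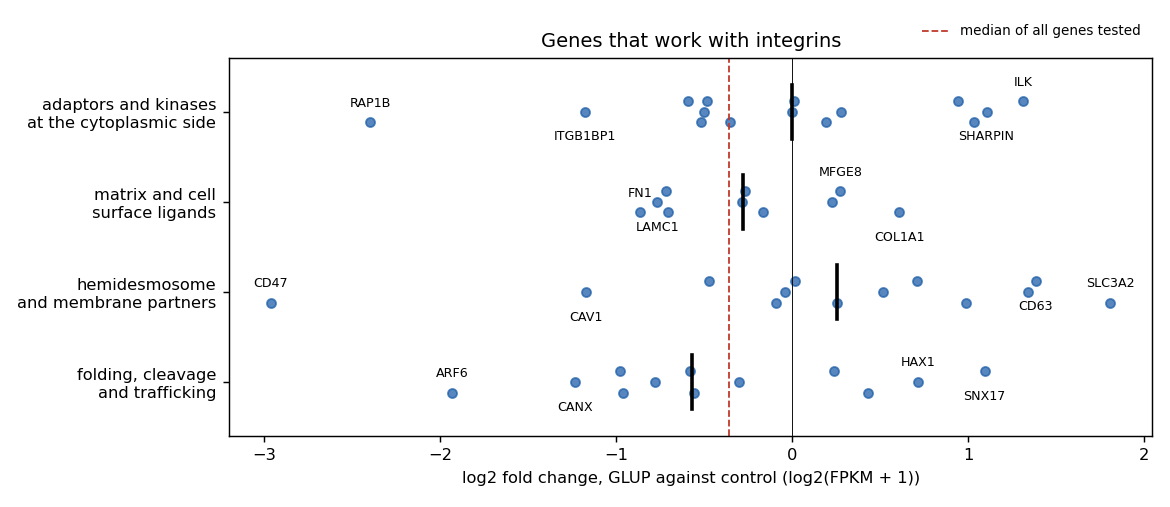
Limma log2 fold change of every tested gene in the 4 partner lists, each gene a point and each list's median a black bar, with the median of all genes tested as a dashed line. RAP1B, CD47 and ARF6 lie lowest in their lists. As deposited, without the GC correction, the medians run from −0.57 for folding, cleavage and trafficking to 0.26 for the membrane partners.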

How the data were processed

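RNA-seq of HGC-27 cells was used from 2 control and 2 GLUP libraries. The authors deposited FPKM values, in 62492 rows for 62443 genes, made on the Majorbio cloud platform. The submitters' processing notes name HISAT2, Cufflinks and RSEM and the build GRCh38.p10, whereas the gene IDs carry the suffix that GENCODE gives to annotation lifted to GRCh37. Names, positions, transcript lengths and GC content were taken from GENCODE release 44 lifted to GRCh37, which is not the release of the file: 99.5% of the gene IDs matched without their version, and 15.0% matched with it. Promoter sequences were from RefSeq on GRCh38.p14.

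Rows of one gene ID were summed. Genes that averaged 1 FPKM or more were tested as log2(FPKM + 1) values in limma 3.58.1 in R 4.3.3 (linear model, mean-variance trend, Benjamini-Hochberg adjustment over 7588 genes). A call needed more than 2-fold and adjusted p below 0.05. Whole reads could not be recovered from the low values, so library depth is unknown and counting error is not given. An exact permutation test of 2 libraries against 2 cannot give a two-sided p under 0.33.

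The integrin genes and the partner lists were chosen with earlier results of these data known. The genes named are the listed integrins, other subunits that reach 1 FPKM in a library, the 2 highest and 2 lowest fold changes among tested genes of each partner list, the cell type markers, and for ITGA5 and ITGB1 the 3 tested genes with the closest profile. Genes that overlap or copy a named integrin gene were named after their values were seen. The alternatives were a pseudocount of 0.1, no filter, a 5 FPKM minimum for the mean, quantile normalization, median centring, a correction for GC content (lowess, span 0.3), dropping the mean-variance trend, blocking on replicate number, a ratio of means without a pseudocount and leaving out each library. PECAM1 was not analysed here.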

Additional observations from a re-analysis of the deposited data

How the results depend on the processing

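The number of all genes called by limma, 2 in the report, fell to 1 under quantile normalization, median centring or a 0.1 FPKM pseudocount. It was 0 with no filter, with a 5 FPKM minimum, with the GC correction and without a mean-variance trend, where 1293, 890, 702 and 1461 genes differed over 2-fold at unadjusted p below 0.05. With the replicate number as a block it stayed at 2, and with the block and the GC correction it was 16. Without a library it lay between 4 and 2710 (2710 without control replicate 1 and 1020 without control replicate 2), and the lone library left in a group is then assumed to vary like the others. Same-numbered libraries deviated together at a correlation of 0.13, and under the replicate block no integrin gene was called. The number of integrin genes called, 0 in the report, lay between 0 and 1 without a library, with ITGB1 called without control replicate 1, and was 0 in the other alternatives. No listed integrin gene reached a mean of 5 FPKM. The log2 fold change of ITGA5 lay between −0.17 and 0.82 without a library. The median difference of the 9 detected genes was −0.66 with a pseudocount of 0.1 and 0.25 with median centring, which moved the median of all genes above 0 to 0.32, and lay between −0.10 and −0.09 without a library. No precision from counting can be given, as the depth is unknown.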
